A study of Mus musculus with 6 samples.

Results

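The 57 genes described here encode the machinery that condenses chromosomes, attaches them to the spindle, separates them and closes the division, and they were chosen by gene symbol from a list of mitotic genes that leaves out kinesins, cyclins and cyclin-dependent kinases. Of these, 56 were measured on an array row with a single gene symbol, out of 19938 such symbols. Sgol1 was found under its newer symbol Sgo1, and the row that holds Hjurp, the chaperone of the centromeric histone, carries 2 gene symbols and was not analysed here. Where a gene had several rows, the row with the highest mean over the arrays was used.

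The knockdown group is 3 arrays of N2A cells, a mouse neuroblastoma line, transiently transfected with 1.5 µg of a vector that expresses a short hairpin RNA against Pou3f3. The control group is 3 arrays of the same line given a non-targeting vector. RNA of both groups was taken 2.5 days after transfection and hybridised to Affymetrix GeneChip Mouse Gene arrays. The arrays are described as biological replicates, all of them are cultures of 1 cell line, and the labels name no sorting of transfected cells. The p-values thus cover only differences between transfections of that line. The replicate numbers 1 to 3 are those of the array titles, and all values below are log2 array values unless a fold or a percentage is named.

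Chromosomes condense as condensin complexes and topoisomerase II compact the DNA, and each centromere, marked by the histone variant CENP-A, builds a kinetochore whose outer NDC80 complex grips the ends of spindle microtubules. The spindle assembly checkpoint holds back the anaphase-promoting complex, a ubiquitin ligase, until every kinetochore is attached, and separase then cuts the cohesin that holds sister chromatids together. Most of these genes are transcribed late in the cell cycle, and many of their promoters carry a cell cycle homology region (CHR) beside CCAAT boxes.

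Pou3f3, the targeted transcription factor, read 8.20, 8.09 and 8.35 in knockdown and 8.37, 8.30 and 8.47 in control. Knockdown was lower in each replicate pair but the groups overlapped. The difference of −0.16 ± 0.08 (SE, n = 3 each; 95% interval −0.35 to 0.02) did not pass an adjusted p of 0.1 in limma (0.303). With the replicate number as a block in limma the adjusted p was 0.0880, which is under 0.1, but the change was smaller than 1.3-fold. The exact two-sided permutation p was 0.2, where the smallest possible is 0.1. A row counted as called when limma's adjusted p was below 0.1 and the fold at least 1.3, and of all rows with 1 symbol 284 were called higher and 149 lower, 65.6% higher, a share of 54.6% after cyclic loess scaling. Of 9 measured markers of sympathetic neuroblasts, the cells N2A resembles, mean array values ran from 9.71 to 13.76, and the mean of the 9 lay between 11.67 and 11.68 on knockdown arrays, against 11.87 to 12.02 on control arrays, with a median difference of −0.18. Among them Dbh, the enzyme that makes noradrenaline, fell by 1.17 (adjusted p = 0.00471 in limma), and the part of this shift in the mitotic result was not tested. Of 18 markers of fibroblasts, glia, leukocytes and endothelium, 0 were called in limma, and 6 (33.3%) had an unadjusted p under 0.05, against 19.9% of all symbols. Their mean was 7.39 to 7.48 in knockdown and 7.48 to 7.56 in control.

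Mitotic genes were higher in Pou3f3 knockdown cells than in control cells almost across the list, by amounts that were small for each gene. The difference was above 0 for 54 of 56 members (96.4%), against 8409 of 19938 symbols (42.2%), and its median was 0.31 over the members, a 1.24-fold difference, against −0.03 over all symbols. The members have higher array values than most symbols. Of 3145 other symbols with mean array values between the members' quartiles, 62.3% were above 0, with a median of 0.05. Ttk, Cdca2, Psrc1, Smc4, Incenp, Fbxo5, Ndc80 and Cenpa rose, with differences of 0.42 to 0.48, and no member fell on the row used. These 8 of 56 members (14.3%) were called by limma's adjusted p and the fold threshold, against 1.35% of all symbols called higher and 0.657% called lower. In RNA from whole cultures, a larger share of dividing cells and more of each RNA per dividing cell cannot be told apart.

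The differences were small enough that the fold threshold decided many calls. Without it, 21 members passed an adjusted p under 0.1 in limma, against 2.76% of all symbols in that direction. A rise of at least 1.3-fold, whatever the p-value, was reached by 10 members (17.9%), against 1.78% of all symbols. All 3 knockdown arrays lay above all 3 control arrays for 36 members (64.3%), against 10.9% of all symbols, and 49 members (87.5%) were higher in knockdown in each of the 3 pairs of equal replicate number, against 23.7% of all symbols. With the replicate number as a block in limma, 10 members were called, against 1.78% of all symbols, and 44 passed an adjusted p under 0.1 without the fold threshold, against 12.2% of all symbols.

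The count of called members depended on single arrays. It was 0 without knockdown 2, with 35 members still at an unadjusted p under 0.05 in limma, 1 without control 2, 4 without control 3, 12 without knockdown 3, 13 without knockdown 1 and 16 without control 1. The calls over all rows with 1 symbol moved with it, in the same order of fits 147, 161, 219, 462, 448 and 611, against 433 with all arrays. Of the 8 called genes, Ttk alone kept its call without control 2, and Ttk, Cdca2, Psrc1 and Cenpa kept theirs without control 3. Fbxo5 lost its call without control 1 and Ndc80 without knockdown 1, and all 8 kept theirs without knockdown 3. The median difference moved less, between 0.26 and 0.34, and 51 to 56 members stayed above 0 in these 6 fits. Adjusting over all 35556 rows of the array called 0 members, with 37 at an unadjusted p under 0.05, and 0 when rows of low variance were first removed, with 28 of 47 at an unadjusted p under 0.05. Few rows of any kind were called in these fits, 28 of 35556 and 12 of 17778.

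**Figure D1:**
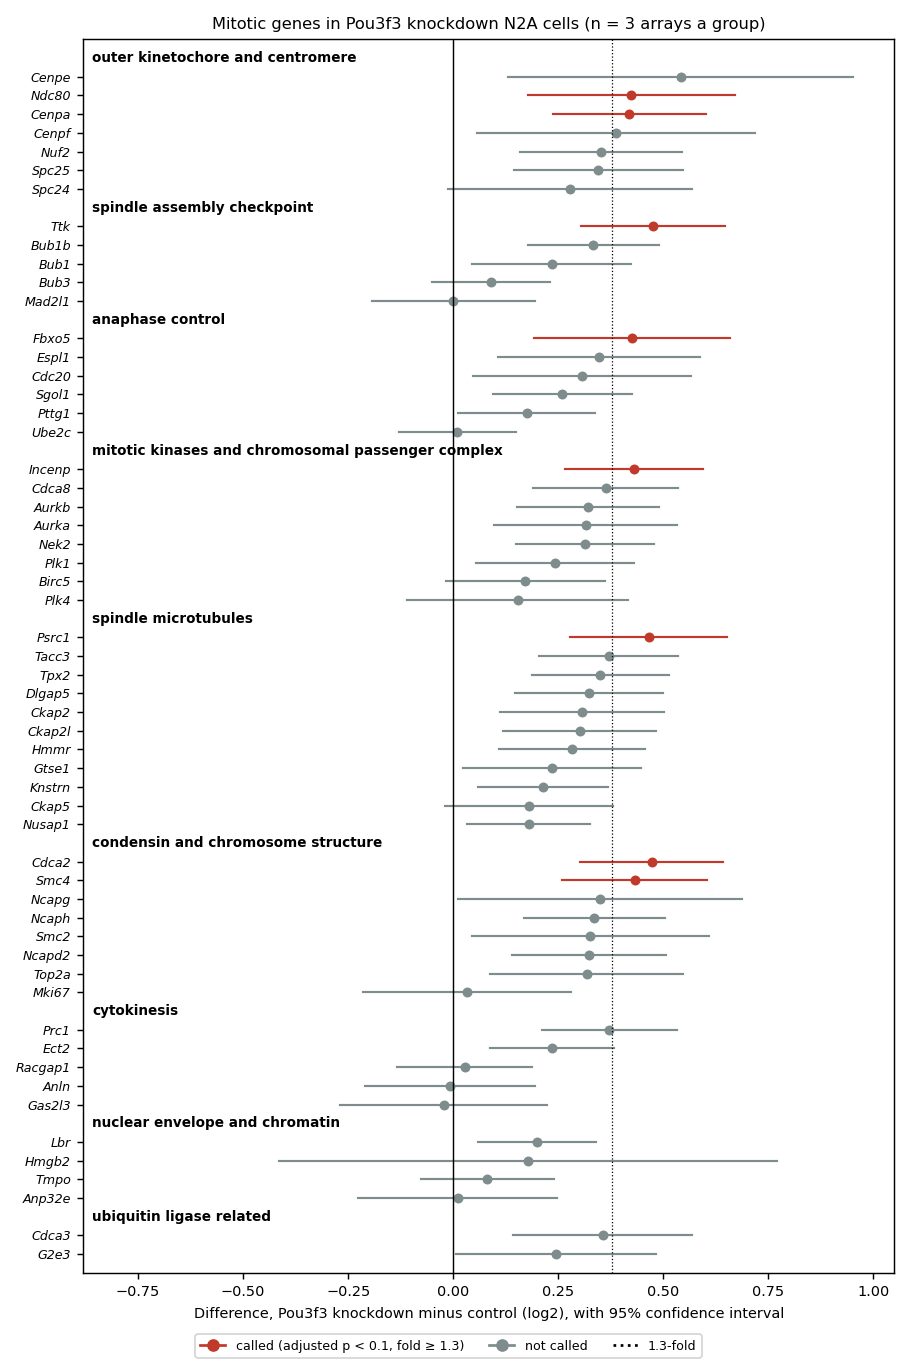
Difference of each measured gene (knockdown minus control, log2, horizontal axis) with its 95% confidence interval from limma, grouped by role; red marks the 8 called genes and the dotted line a fold of 1.3. Points lie right of 0 for 54 of 56 genes and run from −0.02 (Gas2l3) to 0.54 (Cenpe).

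Array by array, the members lay above their own means in knockdown and below them in control. The median deviation of the 56 members from each gene's mean over the 6 arrays was 0.14, 0.22 and 0.07 on knockdown arrays 1, 2 and 3, against −0.11, −0.13 and −0.16 on control arrays 1, 2 and 3. Over all symbols the same medians stayed between −0.02 and 0.02. Knockdown 2 carried the highest value of 34 members and knockdown 1 that of 16, while control 3 carried the lowest value of 23 and control 1 that of 22. Paired by replicate number, the median difference of the members was 0.27, 0.35 and 0.25 in pairs 1, 2 and 3.

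**Figure D2:**
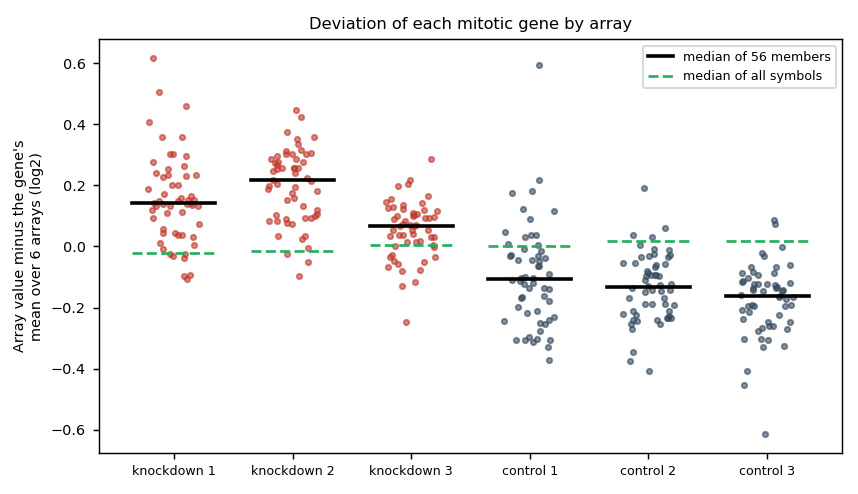
Each point is 1 of the 56 genes on 1 array, as the array value minus that gene's mean over the 6 arrays (log2, vertical axis); black bars are medians over the genes and green dashed bars medians over all symbols. The black bars lie at 0.07 to 0.22 on the knockdown arrays and at −0.16 to −0.11 on the control arrays.

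The promoters of the members shared sequence features that the choice of genes did not use. RefSeq windows on GRCm38.p6, from 250 bases before to 50 after the transcription start, were held for 49 of the 56 measured members, and Aurkb, Cdca2, Dlgap5, Incenp, Smc4, Spc24 and Tpx2 had none. The CHR, written as TTTGAA or TTCGAA on either strand, was found in 36 of 49 members (73.5%), against 21.7% of the 27025 symbols in the table. CCAAT was found in 37 members (75.5%), against 41.1%, and both motifs stood in 34 members (69.4%), against 9.65%. A CHR match lay within 50 bases of the start in 32 members (65.3%), against 6.12% of all symbols. The octamer ATGCAAAT, a classical POU factor sequence, matched 0 of 49 windows, against 1.97% of all symbols, and a missing match says only that these letters are not in the window.

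Psrc1 was the only called member with a window whose CHR match lay before a listed start. A stretch of 71 bases at its promoter is shown, with the CCAAT box and the CHR in capitals (chr3:108383753-108383823, plus strand, GRCm38.p6). The table gives Psrc1 2 starts. The CCAAT begins 41 bases before the upstream start and the CHR at base 5 after it, while counted from the downstream start they begin 75 and 30 bases before it.
Psrc1: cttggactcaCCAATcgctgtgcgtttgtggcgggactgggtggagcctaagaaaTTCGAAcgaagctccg

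The CHR matches of the other called members with a window are shown as 30 bases each, 5′ to 3′ on the gene's strand, with every match in the stretch in capitals. TTCAAA is TTTGAA read on the opposite strand. They lie at chr9:83834684-83834713 (plus) for Ttk, chr10:5805445-5805474 (minus) for Fbxo5, chr17:71526811-71526840 (minus) for Ndc80 and chr5:30666890-30666919 (plus) for Cenpa.
Ttk: cagcggggaaatTTCAAAcgtgtttccgga
Fbxo5: ttgggcaccaaaTTCAAAgattttaaaagt
Ndc80: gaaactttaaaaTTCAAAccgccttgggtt
Cenpa: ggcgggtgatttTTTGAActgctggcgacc

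These matches begin at bases 8, 4, 30 and 17 counted from the start as base 1, in the order listed. All 5 called members with a window held the CHR, and so did 31 of the 44 members with a window that were not called (70.5%). Members that barely moved held it too, as shown by Ube2c, Mki67 and Anln, chosen after their values were seen, at chr2:164769888-164769917 (plus), chr7:135716460-135716489 (minus) and chr9:22389168-22389197 (minus). The Anln stretch holds 2 matches, at bases 22 and 29.
Ube2c: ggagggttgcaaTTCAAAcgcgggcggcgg
Mki67: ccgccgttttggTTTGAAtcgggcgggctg
Anln: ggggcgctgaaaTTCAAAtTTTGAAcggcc

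The median difference was 0.31 over the 36 members with a CHR and 0.24 over the 13 without one, which is a description and was not tested. Cenpe, with the largest difference of all members, was among those without a match.

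The outer kinetochore and centromere group had the highest median difference of the 9 role groups. All 7 measured members were above 0, with a median of 0.39, and 2 rose (28.6%), against 1.35% of all symbols called higher. Each was higher in all 3 replicate pairs, against 23.7% of all symbols. Ndc80, the founding subunit of the microtubule-binding NDC80 complex, read 10.26, 10.18 and 9.90 in knockdown, against 9.86, 9.63 and 9.57 in control. The groups did not overlap, although knockdown 3 lay close to control 1, and Ndc80 rose by 0.42 ± 0.11 (SE, n = 3 each; adjusted p = 0.0912 in limma). Its partners in the complex came next, Nuf2 with a difference of 0.35 and Spc25 with 0.35 (adjusted p = 0.0786 and 0.0919 in limma, both under 1.3-fold), and Spc24 with 0.28 (adjusted p = 0.268). The estimated differences of the 4 subunits thus ran from 1.21-fold to 1.34-fold, with 1 of them called. The Spc24 groups overlapped, and Ndc80 kept its call in 2 of the 6 fits that left out an array.

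Cenpa, the histone H3 variant that marks the centromere, read 11.35, 11.31 and 11.31 in knockdown and 10.98, 10.74 and 11.00 in control. The 3 knockdown arrays were nearly equal and all above the control arrays, and Cenpa rose by 0.42 ± 0.08 (adjusted p = 0.0417 in limma), a 33.7% increase. Cenpe, the kinetochore motor that carries chromosomes to the spindle equator, read 11.02, 10.60 and 10.40 in knockdown, against 10.44, 10.17 and 9.79 in control. Its difference of 0.54 ± 0.18 was the largest of the 56 members, yet knockdown 3 lay below control 1 and the gene was not called (adjusted p = 0.160 in limma). Both Cenpe and Cenpf, a large kinetochore and nuclear matrix protein, were highest on the replicate 1 array of each group, and with the replicate block both passed, Cenpe at an adjusted p of 0.00206 and Cenpf, with a difference of 0.39, at 0.00726.

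The 5 spindle assembly checkpoint genes ranged from 0.00 to 0.48, and 1 rose (20%), against 1.35% of all symbols called higher. Ttk, the kinase MPS1 that starts checkpoint signalling at unattached kinetochores, read 10.56, 10.58 and 10.37 in knockdown, against 10.06, 10.04 and 9.99 in control. The groups were separated by a wide gap, and Ttk rose by 0.48 ± 0.08 (adjusted p = 0.0215 in limma), the largest difference among the called members and a call that held in 5 of the 6 fits that left out an array. Mad2l1, which encodes MAD2, the inhibitor that binds CDC20, read 12.48, 12.75 and 12.50 in knockdown and 12.59, 12.64 and 12.51 in control. The groups overlapped fully, and the difference was 0.00 ± 0.09 with a 95% interval from −0.19 to 0.19. Between them lay Bub1b, the BUBR1 subunit of the inhibitory complex, at 0.33 (adjusted p = 0.0511 in limma, 1.26-fold), the kinase gene Bub1 at 0.23 (adjusted p = 0.180) and Bub3, their binding partner, at 0.09 (adjusted p = 0.442).

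Among the genes that time anaphase, 1 of 6 rose (16.7%), against 1.35% of all symbols called higher, and the median difference was 0.28. Fbxo5, which encodes EMI1, an inhibitor of the anaphase-promoting complex, read 11.35, 11.68 and 11.30 in knockdown, against 10.92, 11.11 and 11.02 in control. Every knockdown array lay above every control array, with knockdown 2 the highest, and Fbxo5 rose by 0.43 ± 0.10 (adjusted p = 0.0776 in limma). Ube2c, the ubiquitin-conjugating enzyme that serves the same complex, read 12.24, 12.30 and 12.27 in knockdown and 12.23, 12.30 and 12.27 in control. These values nearly coincided within each replicate number, and the difference was 0.01 ± 0.06, with a 95% interval from −0.13 to 0.15.

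The remaining anaphase genes lay between these ends and none was called. The differences were 0.35 for Espl1, which encodes separase (adjusted p = 0.136 in limma), 0.31 for Cdc20, the activator of the anaphase-promoting complex (adjusted p = 0.194), 0.26 for Sgol1, the shugoshin that protects centromeric cohesin (adjusted p = 0.116), and 0.17 for Pttg1, which encodes securin, the inhibitor of separase (adjusted p = 0.230). All 6 genes of the group were higher in knockdown in each replicate pair, against 23.7% of all symbols.

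The 8 mitotic kinases and chromosomal passenger genes were all above 0, with a median difference of 0.31. For 7 of them (87.5%) all knockdown arrays lay above all control arrays, against 10.9% of all symbols. Incenp, the scaffold that carries the passenger complex, read 10.81, 10.89 and 10.69 in knockdown, against 10.41, 10.33 and 10.36 in control. The groups did not overlap, and Incenp rose by 0.43 ± 0.07 (adjusted p = 0.0266 in limma). The other passenger subunits had differences of 0.36 for Cdca8, which encodes borealin, 0.32 for Aurkb, the Aurora B kinase, and 0.17 for Birc5, which encodes survivin (adjusted p = 0.0540, 0.0708 and 0.289 in limma), so that 3 of the 4 passed the adjusted p and 1 also reached 1.3-fold. Plk1, the Polo-like kinase of mitotic entry and spindle poles and the gene of highest array value in the group, read 12.32, 12.54 and 12.46 in knockdown, against 12.08, 12.28 and 12.23 in control. Its groups did not overlap, although knockdown 1 lay only just above control 2, and the difference of 0.24 ± 0.08 was not called (adjusted p = 0.166 in limma). The spindle pole kinases Aurka and Nek2 both had a difference of 0.31 (adjusted p = 0.136 and 0.0704), and Plk4, the kinase of centriole duplication, had 0.15 (adjusted p = 0.477).

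Genes of spindle microtubules formed the largest role group, and all 11 were above 0, with a median difference of 0.30. All were higher in all 3 replicate pairs, against 23.7% of all symbols. In this group 1 was called (9.09%), against 1.35% of all symbols called higher. Psrc1, a microtubule plus-end and spindle protein, read 10.19, 10.28 and 10.31 in knockdown, against 9.66, 9.79 and 9.94 in control. Its groups did not overlap, and Psrc1 rose by 0.46 ± 0.08 (adjusted p = 0.0325 in limma), a 38.0% increase. Ckap5, the microtubule polymerase chTOG and the gene of highest array value in the group, read 12.36, 12.07 and 12.13 in knockdown and 12.10, 11.96 and 11.96 in control. Its groups overlapped, and the difference of 0.18 ± 0.09 was not called (adjusted p = 0.290 in limma).

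Just under the fold threshold stood Tacc3, the partner of chTOG at spindle microtubules, with a difference of 0.37, Tpx2, the activator of Aurora A, with 0.35, and Dlgap5, which encodes the kinetochore fibre protein HURP, with 0.32 (adjusted p = 0.0445, 0.0502 and 0.0767 in limma). The others were Ckap2 with 0.31, Ckap2l with 0.30, Hmmr with 0.28, Gtse1 with 0.24, Knstrn with 0.21 and Nusap1 with 0.18, at adjusted p-values between 0.101 and 0.216. These are microtubule-binding proteins of the spindle and its poles. For 5 of the 6 all knockdown arrays lay above all control arrays, against 10.9% of all symbols.

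The condensin and chromosome structure group had a median difference of 0.33 and 2 called genes of 8 (25%), against 1.35% of all symbols called higher. Cdca2, which encodes Repo-Man, the phosphatase subunit that loads onto chromosomes as they leave mitosis, read 10.18, 10.18 and 9.98 in knockdown, against 9.61, 9.64 and 9.69 in control. The gap between the groups was larger than the range of either, and Cdca2 rose by 0.47 ± 0.08 (adjusted p = 0.0217 in limma). Smc4, the ATPase core shared by both condensins, read 12.18, 12.23 and 12.06 in knockdown, against 11.82, 11.71 and 11.63 in control. Its groups did not overlap either, and Smc4 rose by 0.43 ± 0.08 (adjusted p = 0.0325 in limma).

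The other condensin I genes lay just below the fold threshold. Differences were 0.33 for Smc2, its ATPase partner, 0.34 for Ncaph, the kleisin of condensin I, 0.32 for Ncapd2 and 0.35 for Ncapg, its HEAT-repeat subunits (adjusted p = 0.202, 0.0624, 0.0856 and 0.240 in limma). The 5 subunits of condensin I thus ran from 1.25-fold to 1.35-fold higher in knockdown. The groups overlapped for Smc2 and Ncapg, whose control 1 arrays lay above the knockdown 3 arrays.

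Top2a, topoisomerase II alpha, had 2 array rows that differed in sign. The row used here, of high array value, read 13.05, 12.87 and 12.81 in knockdown, against 12.79, 12.54 and 12.45 in control, a difference of 0.32 ± 0.10 with groups that did not overlap (adjusted p = 0.146 in limma). The other row, of low array value, read 5.18, 5.58 and 5.50 in knockdown, against 6.13, 5.83 and 5.95 in control, and was called lower by itself, with a difference of −0.55 (adjusted p = 0.0522). The mean of both rows gave −0.12, so that the direction for Top2a depends on whether the low row is counted. That row lay below the median array value of all symbols, 8.56, and whether it detected Top2a RNA was not analysed here. Mki67, the surface protein of mitotic chromosomes used as a proliferation marker, had a difference of 0.03 ± 0.11 with overlapping groups (adjusted p = 0.889).

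**Figure D3:**
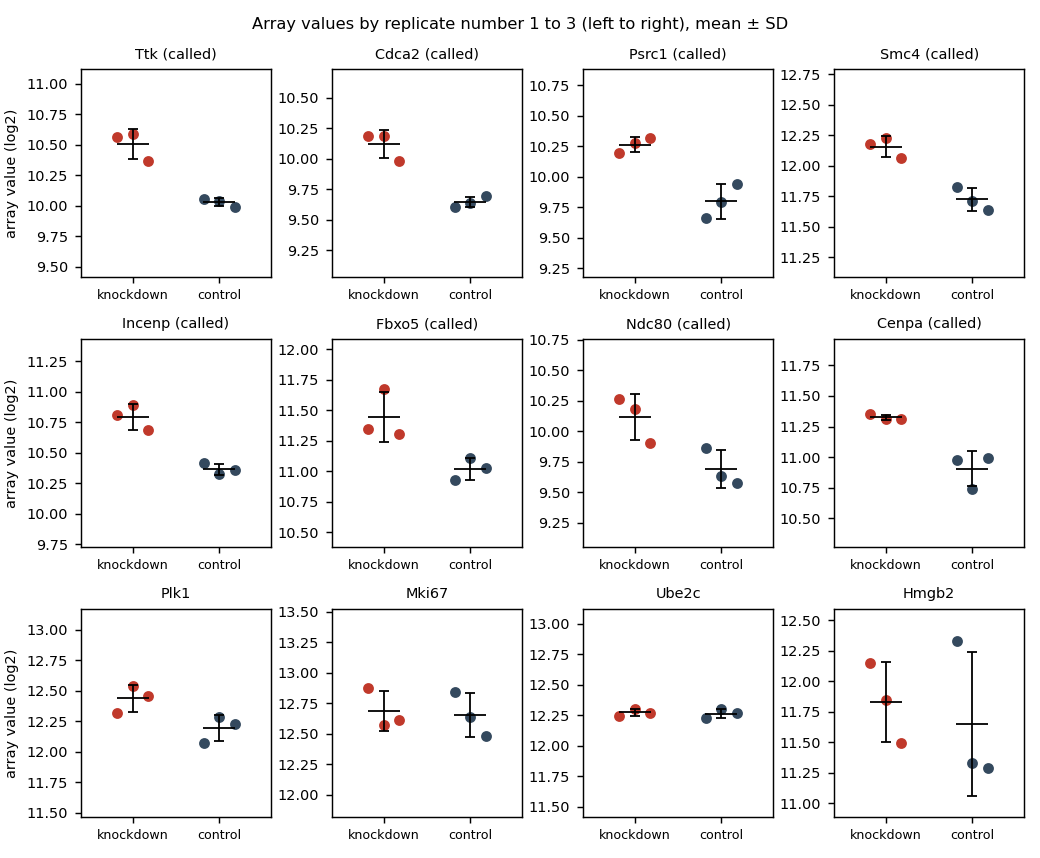
Array values (log2, vertical axes of equal span) of the 8 called genes and of Plk1, Mki67, Ube2c and Hmgb2, with knockdown in red left of control in dark blue; points run from replicate 1 to 3, and bars are the mean ± SD (n = 3 arrays). The called genes do not overlap between groups, the Ube2c points coincide, and the Hmgb2 points are spread by replicate 1.

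Cytokinesis genes had the lowest median difference of the role groups, 0.03 over 5 genes. Of these, 0 were called in limma, and 2 (40.0%) had an unadjusted p under 0.05, against 19.9% of all symbols. Prc1, which bundles the microtubules of the central spindle, read 11.19, 11.21 and 11.02 in knockdown, against 10.74, 10.79 and 10.78 in control. Its groups were well apart, and the difference of 0.37 ± 0.07 had an adjusted p of 0.0417 in limma at 1.29-fold, just below the fold threshold. Ect2, the activator of RhoA at the division plane, had a difference of 0.24 (adjusted p = 0.112).

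The other 3 cytokinesis genes lay at 0. Racgap1, the central spindle partner of Ect2 and the member of highest array value, read 13.13, 13.02 and 13.11 in knockdown and 12.97, 13.06 and 13.15 in control, a difference of 0.03 ± 0.07. Anln, anillin of the contractile ring, read 12.15, 12.03 and 11.92 in knockdown and 12.16, 12.08 and 11.90 in control, a difference of −0.01 ± 0.09. Gas2l3, a linker of actin and microtubules at the midbody, read 10.88, 11.00 and 10.84 in knockdown and 10.68, 11.11 and 11.01 in control, a difference of −0.02 ± 0.11. Groups overlapped for all 3, and the 95% intervals reached from −0.13 to 0.19 for Racgap1, −0.21 to 0.19 for Anln and −0.27 to 0.22 for Gas2l3, all ending below a 1.3-fold increase.

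The nuclear envelope and chromatin genes had a median difference of 0.13, with 0 called of 4 in limma and 1 at an unadjusted p under 0.05. Lbr, the lamin B receptor of the inner nuclear membrane, read 12.31, 12.25 and 12.21 in knockdown, against 12.04, 12.06 and 12.07 in control. The groups did not overlap, and the difference of 0.20 ± 0.06 corresponded to 14.8% (adjusted p = 0.140 in limma). Hmgb2, a chromatin protein of dividing cells, read 12.15, 11.85 and 11.49 in knockdown and 12.33, 11.33 and 11.29 in control. Its replicate 1 arrays were the highest of both groups, the SD within control was 0.59, and the difference of 0.18 ± 0.26 could not be told from 0, while its 4 array rows gave differences of 0.18 to 0.24 and none was called. Tmpo, which encodes lamina-associated polypeptides, had 0.08, and Anp32e, a histone chaperone, had 0.01 (adjusted p = 0.528 and 0.966).

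The 2 genes related to ubiquitin ligases were above 0 and not called. Cdca3, a trigger of mitotic entry that acts in an F-box ligase, read 10.66, 10.99 and 10.78 in knockdown, against 10.34, 10.51 and 10.52 in control, and its groups did not overlap (difference 0.36 ± 0.09, adjusted p = 0.0985 in limma, 1.28-fold). G2e3, a ubiquitin ligase named for its expression late in the cycle, read 11.65, 11.37 and 11.23 in knockdown and 11.27, 11.15 and 11.10 in control. Knockdown 3 lay below control 1, and the difference of 0.25 ± 0.11 was not called (adjusted p = 0.242).

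The size of the difference varied with the mean array value, which depends on the response of each gene's probes as well as on its RNA. Mean array values of the members ran from 8.84 (Spc24) to 13.07 (Racgap1). Across the 56 members, array value and difference were related at Pearson's r = −0.57 and Spearman's rho = −0.58, against 0.22 and 0.26 across all symbols; these are descriptions over genes that share the same 6 arrays and differ in probes. The 14 members of lowest array value had a median difference of 0.36 and included 5 of the called genes, the 28 in the middle had 0.31 with 2 called, and the 14 of highest array value had 0.19 with 1 called, Smc4. Among the 3145 other symbols at mean array values of 10.61 to 11.90, the span between the members' quartiles, the median difference was 0.05, with 43 called higher and 33 lower.

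**Figure D4:**
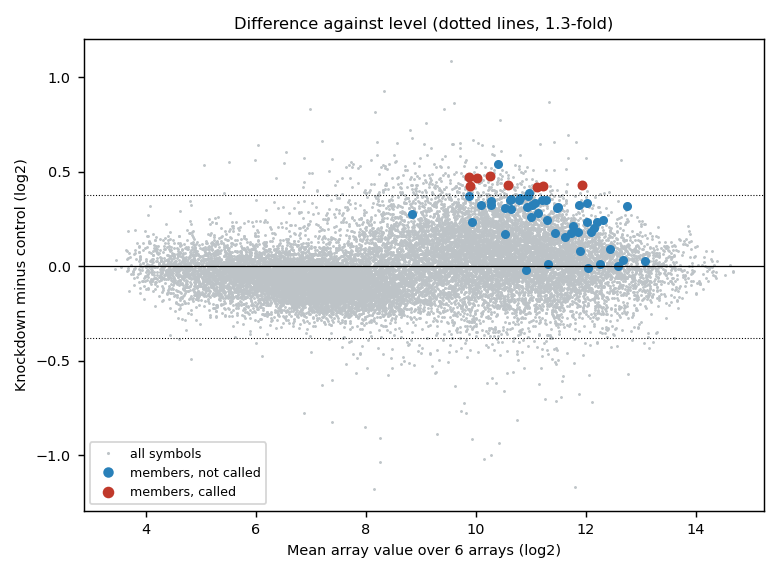
Difference (knockdown minus control, log2, vertical axis) against mean array value (log2, horizontal axis); grey dots are all 19938 symbols, blue points members that were not called and red points the 8 called members. Members lie at 8.84 to 13.07 on the horizontal axis, and 5 of the 7 differences under 0.05 belong to genes at mean array values of 12.04 or higher.

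Part of the spread within groups followed the replicate number. The replicate 1 arrays lay more than 0.2 above the mean of replicates 2 and 3 for 12 members and more than 0.2 below it for 5, and the SD of this offset over the members was 0.20, against 0.15 over all symbols. Hmgb2 had the highest offset (0.75), followed by Cenpe (0.49), Ncapg (0.44) and Cenpf (0.41), while Spc24 (−0.31) and Cdc20 (−0.30) had the lowest. In each of these 6 genes the groups overlapped.

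Other genes of chromosome segregation, taken from lists that hold no member, lay mostly above 0, and a minority of each list was called. Called higher were 33.3% of other kinetochore genes, 36.4% of mitotic kinesins and 16.7% of other spindle and cytokinesis genes, against 1.35% of all symbols. Over all symbols 0.657% were called lower. Of 27 other kinetochore genes, 25 were above 0 with a median difference of 0.32, and 9 rose and 0 fell, led by Cenph (0.58), Cenpi (0.53) and Cenpu (0.50), all subunits of the inner kinetochore. Zwint, which links the outer kinetochore to the RZZ complex, had the lowest value of that list, −0.15 (adjusted p = 0.322 in limma). Of 11 mitotic kinesins, all were above 0 with a median of 0.40, and 4 rose, led by Kif14 (0.48), Kif2c (0.46) and Kif4 (0.45), motors of the midbody, the centromere and the chromosome arms. Of 24 other spindle and cytokinesis genes, 22 were above 0 with a median of 0.27, and 4 rose, led by Melk (0.62), Cep55 (0.48) and Bora (0.42), a kinase, a midbody protein and an activator of Aurora A. Haus4, a subunit of the augmin complex that branches spindle microtubules, lay the other way, at −0.29 with an adjusted p of 0.0536 in limma, short of 1.3-fold.

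The remaining lists had medians of 0.26 or below. Called higher were 8.33% of the cyclin and CDK1 list, 8.33% of replication genes and 11.8% of cohesin and condensin II genes, against 1.35% of all symbols. Of 12 mitotic cyclins and regulators of CDK1, all were above 0 with a median of 0.26, and Cdc25c, the phosphatase that activates CDK1, was the 1 gene that rose (0.62). Of 24 replication genes, 20 were above 0 with a median of 0.18, and Rfc3 (0.53) and Prim1 (0.43), a clamp loader subunit and a primase subunit, rose. Of 17 cohesin and condensin II genes, 15 were above 0 with a median of 0.14, and Ncapg2 (0.65), of condensin II, and Cdca5 (0.39), which encodes sororin, rose. Of 14 subunits and partners of the anaphase-promoting complex, 13 were above 0 with a median of 0.09, and 0 were called in limma. An unadjusted p under 0.05 was found for 3 of them (21.4%), close to the 19.9% of all symbols. The differences between these lists were not tested.

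**Figure D5:**
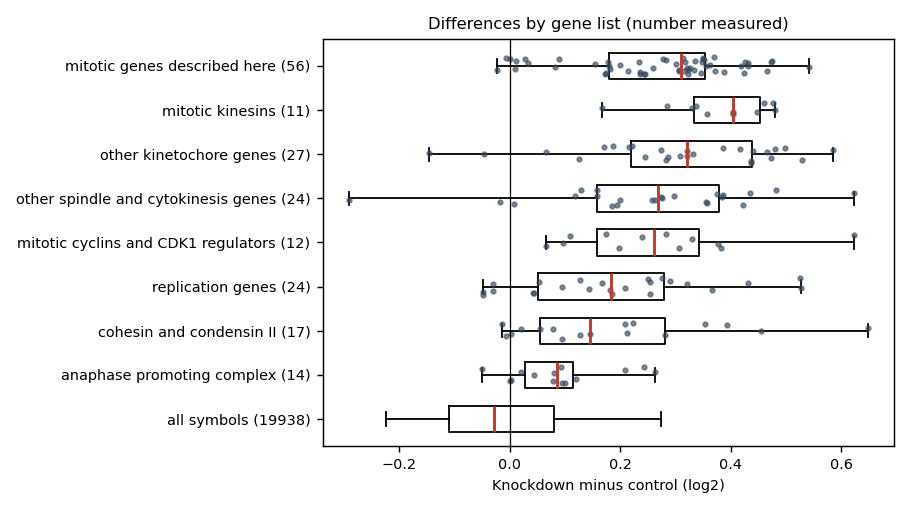
Differences (knockdown minus control, log2, horizontal axis) by gene list with the number measured; boxes span the quartiles, red lines are medians, points are genes and whiskers reach the extremes, or the 5th and 95th percentiles for all symbols. Medians run from 0.40 (mitotic kinesins) to 0.09 (anaphase-promoting complex), with the members at 0.31 and all symbols at −0.03.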

How the data were processed

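Total RNA of 6 N2A cultures was hybridised to gene-level arrays. The deposited values are log2 intensities that the authors obtained by RMA background correction, quantile normalisation and a summary of probes at the gene level. The submitters' processing notes give RMA and limma, with no version. Quantile normalisation hides a change shared by most genes. Array values ran from 3.16 to 14.89, and precision is limited by 3 arrays a group.

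Of 35556 rows, 21789 carried 1 gene symbol, 1621 several and 12146 none listed here. Rows with 1 symbol were fitted with limma 3.58.1 (R 4.3.3), knockdown minus control, without a variance filter, and p-values were adjusted by Benjamini-Hochberg over these rows. Thresholds followed the study's methods, an FDR of 10% and a fold of 1.3. Those methods also removed genes of little variance, a step read here as a cut at the median variance and run only as an alternative. With it, 0 members were called over all rows (12 of 17778 rows called), and 10 of 50 over rows with 1 symbol. The script was tested on simulated data. Members, lists and tests were chosen with earlier results of these data known. Array values are printed for every called member and for the largest difference and highest array value in each role group. They are also printed for members below 0 and for members with rows of opposite sign. Hmgb2 was added after its values were seen, and so was Mki67, whose array values are only plotted. Deviations from group means correlated at 0.64, 0.31 and 0.29 between arrays of equal replicate number 1, 2 and 3, each above 0.1, and the numbers were taken to pair arrays. Knockdown 3 with control 2 (0.25) and knockdown 2 with control 3 (0.22) came close, so that replicate 1 was the number most clearly set apart. Over the members alone, equal numbers 1, 2 and 3 correlated at 0.79, 0.44 and 0.78. Knockdown 3 with control 2 reached 0.47 there, above the value for number 2. Alternatives were other row sets, scalings, limma settings, thresholds, a replicate block and leaving out each array. Motifs were searched with Python 3.11.15 in RefSeq promoters (GRCm38.p6). Detection above background was not analysed here.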

Additional observations from a re-analysis of the deposited data

How the results depend on the processing

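The member median and the count above 0 kept their direction in every alternative run, at 0.26 to 0.34 and with at most 5 measured members at or below 0. Of 8 called members, the count was 0 over all rows, with or without the variance filter (the cause was not tested), 21 without the fold threshold, and 0 to 16 when 1 array was left out. With the replicate block it was 10, and 44 with the block and no fold threshold, a choice added after seeing the data. Cyclic loess, which moves the median of all rows to 0.00, called 6 and gave Mad2l1 −0.012 and Ube2c −0.0094. The mean of rows turned Top2a to −0.12. Leaving out 1 array turned the sign of genes at 0, with ranges of −0.082 to 0.049 for Anln, −0.15 to 0.067 for Gas2l3, −0.087 to 0.049 for Mad2l1, −0.017 to 0.071 for Racgap1 and −0.0093 to 0.027 for Ube2c. Over the named genes, the alternatives left 319 values on the same side of the threshold, 42 lost a call, 16 gained one and 14 turned sign. With 3 arrays a group, the 95% interval of the difference included 0 for 14 members.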
